A study of Mus musculus with 12 samples.

Results

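The 44 genes described here encode the enzymes, transporters and regulators that turn glucose into pyruvate, exchange lactate between cells, bring pyruvate into mitochondria and run the tricarboxylic acid (TCA) cycle. They were listed by symbol from a table of 41743 genes, with earlier results of these data known. The symbols of 43 genes were found as listed, and Aldoa, which the table splits into Aldoa_1 and Aldoa_2, was read from Aldoa_1, the row with the identifier of the aldolase A gene (ENSMUSG00000030695). Of the 44, 43 passed a filter of a mean of at least 0.5 RPKM (reads scaled to gene model length and to library depth), as did 13493 genes in all, and Slc16a3 lay under it. By role, 3 genes serve glucose uptake and hexokinase activity, 8 upper glycolysis, 6 lower glycolysis, 5 lactate, 9 pyruvate entry and 13 the TCA cycle.

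RNA was sequenced from whole hippocampi of male C57Bl/6 mice, 12 weeks old, in 2 groups of 6 different animals. The Gulf War toxicant group received a daily subcutaneous mixture on weekdays for 2 weeks, given as 2.5 mg/kg pyridostigmine bromide, a reversible cholinesterase inhibitor, 12.5 mg/kg chlorpyrifos, an organophosphate insecticide, and 7.5 mg/kg DEET, an insect repellent. The control group is labelled Vehicle, and hippocampi were collected once the exposure was over. The mixture was given as a whole, so no component can be told apart from the others. The comparison asks which transcripts of energy metabolism differed between exposed and control animals. Hippocampal markers were present in every library, with the granule cell gene Prox1 at 7.33 to 12.2 RPKM in toxicant and 7.26 to 13.6 RPKM in control libraries, and the excitatory neuron gene Slc17a7 at 184 to 252 RPKM and 185 to 325 RPKM. Wfs1, a CA1 marker, read 17.5 to 30.1 RPKM in toxicant and 29.7 to 43.0 RPKM in control libraries. Markers of the choroid plexus varied widely within both groups. Their sums ran from 15.3 to 1810 RPKM in toxicant and from 17.0 to 2900 RPKM in control libraries.

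Neurons take up glucose mainly through the transporter encoded by Slc2a3, and glycolysis splits each glucose into pyruvate with a small yield of ATP. Pyruvate is either reduced to lactate by lactate dehydrogenase or imported into mitochondria, where pyruvate dehydrogenase makes the acetyl-CoA that citrate synthase feeds into the TCA cycle. Astrocytes and oligodendrocytes are known to release lactate that neurons can take up and oxidise, with different monocarboxylate transporters and lactate dehydrogenase subunits in different cells. In whole tissue, fewer cells of a type and less RNA per cell cannot be told apart.

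The columns of controls 4 and 5 held identical values in every gene and were counted as 1 library, control 4-5, which left 6 toxicant and 5 control libraries. The RPKM values rested on 21.47 to 28.36 M reads per toxicant library and 24.95 to 34.85 M reads per control library, recovered from the steps of the deposited values. Libraries stood apart within the control group. The share of reads that lay on annotated genes was 83.8%, 78.7%, 80.9%, 76.8%, 81.7% and 83.1% in toxicant libraries 1 to 6, against 89.5%, 78.4%, 88.4%, 83.1% and 87.4% in controls 1, 2, 3, 4-5 and 6. Controls 2 and 4-5 therefore lay within the toxicant range, and the other 3 controls above it. The share was summed from the deposited values of all genes, the members among them. It is therefore not a measure independent of the levels set beside it. Malat1, a nuclear-retained RNA, read 158 to 339 RPKM in toxicant libraries and 46.0, 345, 70.5, 222 and 84.6 RPKM in the same controls. All 9 nuclear-retained RNAs tested read higher on average in toxicant libraries. Neuronal markers, among them the member Eno2, were lower in 9 of 10 genes (70.0% of all genes tested were). Their summed level was 1140.0 to 1390.0 RPKM in toxicant and 1240.0 to 1650.0 RPKM in control libraries. The part of these in the results was not tested, other than through the share of reads on genes.

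Transcripts of the pathway read lower on average in toxicant than in control hippocampi, but no member passed the adjusted test. limma found 0 of 43 members, and 0 of 13493 genes, at a Benjamini-Hochberg adjusted p under 0.05 (0.0% of all genes in each direction). The smallest adjusted p was 0.207 among members and 0.0715 among all genes. At an unadjusted p under 0.05 in limma, 7 members were lower (16.3%), against 17.0% of all genes tested, and 2 were higher (4.65%), against 3.33% of all genes. A voom fit on the recovered reads gave the same counts, 7 and 2, and likewise 0 after adjustment. The members' share at that level was thus near the background. By sign alone, 38 of 43 members were lower (88.4%), against 70.0% of all genes. The median log2 fold change, toxicant over control on the log2(RPKM + 0.5) scale, was -0.19 over the members and -0.11 over all genes, and 33 members lay below the median of all genes. These counts describe genes that share libraries, scaling and regulation, and are not independent of each other.

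The spread between control animals was wide in these genes. Of the 38 lower members, control 3 lay above every toxicant library in 37, control 1 in 36 and control 6 in 36. Control 4-5 did so in 6 and control 2 in 1. Control 2 was the lowest control in 37 of the 38. Median deviations from the gene means over the members were 0.39, -0.25, 0.25, -0.07 and 0.22 log2 units in controls 1, 2, 3, 4-5 and 6, and ran from -0.22 to 0.03 in toxicant libraries. The members took 0.792% to 1.01% of a library's reads in toxicant and 0.795% to 1.34% in control animals. Without control 2, limma placed 18 members lower (28.1% of all genes were) and 3 higher (8.56% of all genes) at an adjusted p under 0.05. The median log2 fold change was then -0.28, with 38 of 43 members lower against 69.0% of all genes, so that the count of calls rested on that library. The 3 higher genes were then Slc16a7, Dld and Sucla2. The 18 lower ones were Hk1, Gapdh, Pgk1, Eno2, Ldhb, Slc16a1, Mpc1, Pdhb, Pcx, Cs, Idh2, Idh3g, Ogdh, Dlst, Suclg1, Suclg2, Fh1 and Mdh2, with log2 fold changes between -0.42 for Gapdh and -0.22 for Pdhb. Leaving out any other single library gave 0 members past the adjusted threshold. With each library's gene-read share added to the model as a covariate, limma called 0 members after adjustment (0.0% of all genes in each direction). At an unadjusted p under 0.05 that fit had 2 members lower, Slc16a1 and Mpc1, against 9.13% of all genes, and 3 higher, Pfkl, Pgam1 and Ldha, against 4.34% of all genes. By sign, 13 of 43 members were lower in it, against 61.2% of all genes, and the median was 0.05, against -0.03 over all genes. Scaling by median ratios moved the median of all genes by 0.11 log2 units to 0.00 and left that of the members at -0.06, with 33 of 43 members lower against 49.7% of all genes. At an unadjusted p under 0.05 it gave 1 member lower (5.14% of all genes) and 3 higher (8.19% of all genes). With quantile normalization 25 of 43 members were lower, beside 8132 of all 13493 genes, and 17 members lay below the median of all genes. The median was then -0.01 over the members and -0.04 over all genes, so the excess of lower members was not seen under that scaling.

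**Figure D1:**
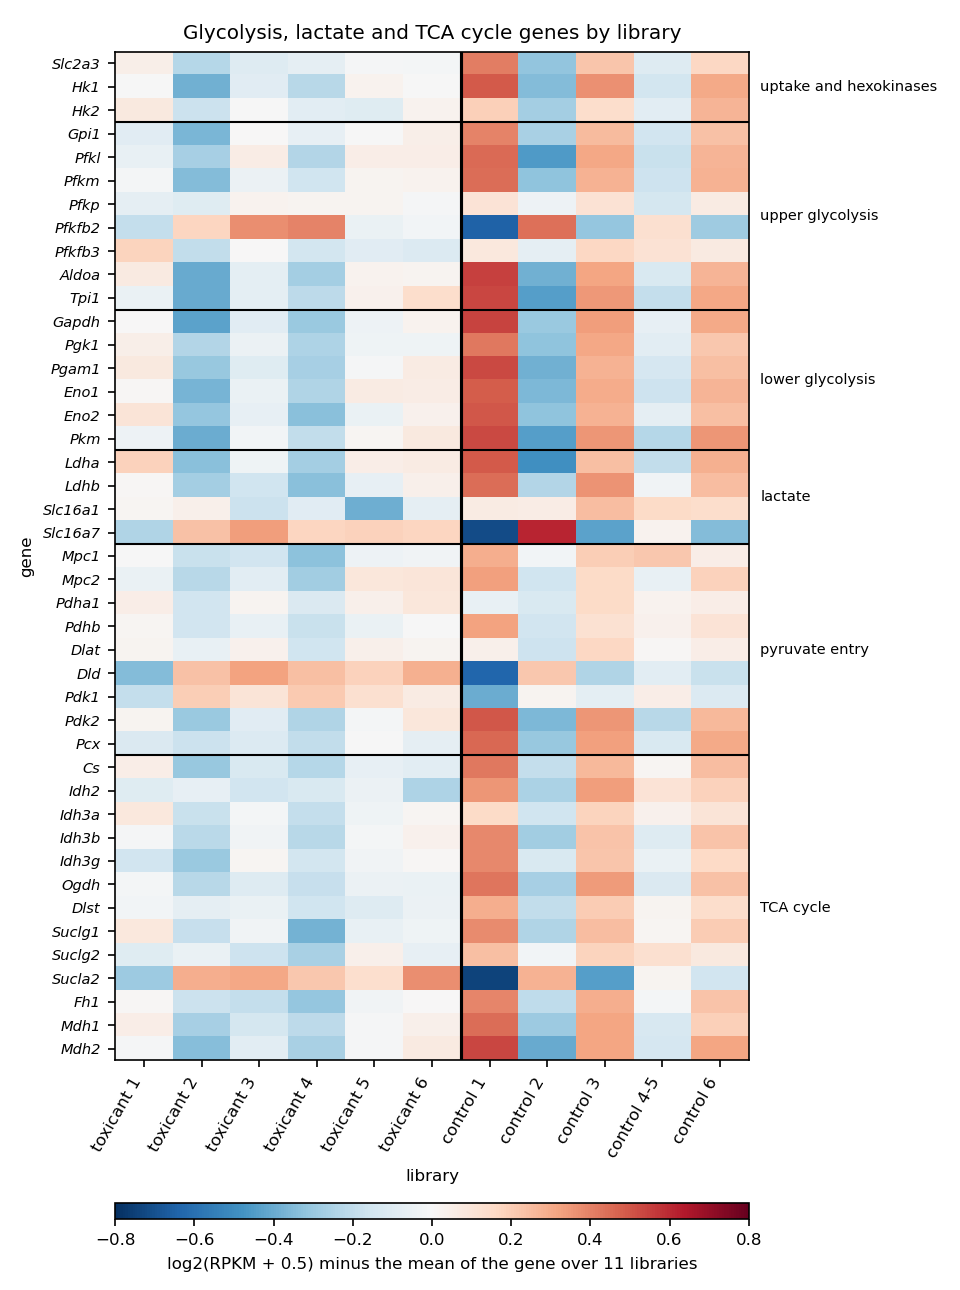
Heat map of 43 genes (rows, by role) in 6 toxicant and 5 control libraries (columns), coloured by log2(RPKM + 0.5) minus the mean of the gene over the 11 libraries. Controls 1, 3 and 6 are above the mean in most rows, control 2 is below it in most rows, and a few rows, such as Sucla2 and Dld, show the opposite colours.

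Of the genes for glucose uptake and its first phosphorylation, Slc2a3, Hk1 and Hk2, all 3 read lower in toxicant hippocampi and none passed the test. Lower by sign were 70.0% of all genes tested. Hk1, the main brain hexokinase, which commits glucose to metabolism, lay between 27.8 and 37.2 RPKM (median 35.3) in the 6 toxicant libraries, against 51.3, 28.5, 47.0, 32.8 and 44.9 RPKM in controls 1, 2, 3, 4-5 and 6. Controls 1, 3 and 6 exceeded every toxicant library, while controls 2 and 4-5 lay inside the toxicant range. The log2 fold change was -0.24 ± 0.15 (SE; limma, Benjamini-Hochberg adjusted p = 0.303). Slc2a3, the neuronal glucose transporter GLUT3, lay between 12.9 and 15.7 RPKM (median 14.7) in the 6 toxicant libraries, against 20.3, 12.1, 17.8, 14.1 and 17.1 RPKM in the same controls. The groups overlapped, with control 2 below every toxicant library (log2 fold change -0.14 ± 0.12). Hk2, the insulin-responsive hexokinase of muscle and fat, was low, at 0.867 ± 0.0868 RPKM in toxicant and 0.965 ± 0.217 RPKM in control libraries (SD, n = 6 and 5).

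Upper glycolysis, the steps that use ATP to turn glucose 6-phosphate into triose phosphates, had 7 of 8 genes lower and 1 higher, none past the test, and their median log2 fold change was -0.16. Over all genes tested 70.0% were lower, with a median of -0.11. Aldoa, the aldolase that splits fructose 1,6-bisphosphate, had the highest level of all members. It lay between 312 and 433 RPKM (median 404) in the 6 toxicant libraries, against 602, 316, 512, 379 and 498 RPKM in controls 1, 2, 3, 4-5 and 6. Control 2 was within the toxicant range and only controls 1, 3 and 6 were above it (log2 fold change -0.23 ± 0.16; limma, adjusted p = 0.346). The separate row Aldoa_2 averaged 0.873 RPKM in toxicant and 0.987 RPKM in control libraries, so reads given to it were few. Gpi1, which isomerises glucose 6-phosphate, averaged 70.8 ± 6.85 RPKM in toxicant and 80.8 ± 15.4 RPKM in control libraries, and Tpi1, which interconverts the triose phosphates, 128 ± 16.6 RPKM in toxicant and 151.3 ± 40.4 RPKM in control libraries (SD, n = 6 and 5).

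Among the phosphofructokinase subunits, which carry the committed step, Pfkm was the most abundant, at a mean of 68.3 RPKM in toxicant and 79.2 RPKM in control libraries. Pfkl averaged 31.9 RPKM in toxicant and 36.1 RPKM in control libraries and Pfkp 12.2 RPKM in toxicant and 12.5 RPKM in control libraries. Pfkp differed least of the 3, with a log2 fold change of -0.04 ± 0.07 against -0.19 ± 0.14 for Pfkm and -0.15 ± 0.15 for Pfkl. The bifunctional enzymes that set fructose 2,6-bisphosphate, the activator of phosphofructokinase, had opposite signs. Pfkfb3, whose kinase activity dominates, lay between 3.23 and 4.35 RPKM (median 3.49) in the 6 toxicant libraries, against 4.04, 3.57, 4.30, 4.14 and 3.99 RPKM in controls 1, 2, 3, 4-5 and 6. Of the toxicant libraries, 4 were below the lowest control, and the highest toxicant library was above every control (log2 fold change -0.13 ± 0.08; limma, adjusted p = 0.292). Pfkfb2 averaged 3.71 ± 0.704 RPKM in toxicant and 3.13 ± 1.08 RPKM in control libraries (SD, n = 6 and 5), with a log2 fold change of 0.25 ± 0.18 and -0.14 with the gene-read share as covariate.

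All 6 genes of lower glycolysis, the ATP-yielding steps of the pathway, read lower in toxicant hippocampi within a narrow range of log2 fold changes, -0.30 to -0.19, and none passed the test. The share lower among all genes tested was 70.0%. Gapdh, which oxidises glyceraldehyde 3-phosphate and is often used as a reference transcript, lay between 191 and 262 RPKM (median 245) in the 6 toxicant libraries, against 374, 209, 324, 245 and 316 RPKM in controls 1, 2, 3, 4-5 and 6. Controls 1, 3 and 6 were above every toxicant library and control 2 was well inside the toxicant range. Its log2 fold change of -0.30 ± 0.15 was the most negative of all members (limma, adjusted p = 0.257), and was 0.01 with the covariate.

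Eno2, the neuronal enolase subunit, lay between 102.6 and 139 RPKM (median 124) in the 6 toxicant libraries, against 183, 103.3, 157, 123 and 153 RPKM in controls 1, 2, 3, 4-5 and 6. Its groups overlapped through controls 2 and 4-5 (log2 fold change -0.23 ± 0.14). Pkm, the pyruvate kinase that ends glycolysis, lay between 151.2 and 211 RPKM (median 195) in the 6 toxicant libraries, against 287, 147, 254, 170.4 and 255 RPKM in the same controls. Control 2 was below every toxicant library and control 4-5 within their range (log2 fold change -0.21 ± 0.17; limma, adjusted p = 0.411). Pgk1, the phosphoglycerate kinase that makes the first ATP, averaged 123 ± 10.2 RPKM in toxicant and 143 ± 29.1 RPKM in control libraries (SD, n = 6 and 5). Pgam1, the phosphoglycerate mutase, averaged 190.2 RPKM in toxicant and 222 RPKM in control libraries, and Eno1, the enolase subunit of most tissues, 100.3 RPKM in toxicant and 117 RPKM in control libraries. With the covariate all 6 genes had a log2 fold change above 0, with a median of 0.10, and Pgam1 had an unadjusted p under 0.05 in that fit (limma). In the same fit 61.2% of all genes were lower, with a median of -0.03.

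The lactate genes held the only member whose groups did not overlap. Slc16a1 (chr3:104638668-104658462, plus strand, GRCm38) encodes the monocarboxylate transporter MCT1 of endothelium, astrocytes and oligodendrocytes. It lay between 5.36 and 7.39 RPKM (median 6.76) in the 6 toxicant libraries, against 7.54, 7.51, 8.62, 8.01 and 7.95 RPKM in controls 1, 2, 3, 4-5 and 6. Every toxicant library was below every control, which held for 1 of 43 members (2.33%) and 2.03% of all genes tested, and the gap between the highest toxicant library and the lowest control was small. The log2 fold change was -0.24 ± 0.08 (SE; limma, unadjusted p = 0.0121, Benjamini-Hochberg adjusted p = 0.216), and -0.23 with the covariate. It was smaller with median-ratio scaling, at -0.12 (limma, adjusted p = 0.514), and with quantile normalization, at -0.17 (limma, adjusted p = 0.349). No member had every toxicant library above every control, as did 0.111% of all genes.

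Markers of the cells that carry MCT1 were read beside Slc16a1, and none passed the adjusted test (limma). Of all genes tested, 70.0% were lower by sign. Endothelial markers were lower in 9 of 10 genes and summed to 53.6 to 59.2 RPKM in toxicant and 63.9 to 73.5 RPKM in control libraries. Oligodendrocyte markers were lower in 8 of 10 genes and summed to 481 to 665 RPKM in toxicant and 689 to 774 RPKM in control libraries. Astrocyte markers were lower in 7 of 10 genes, the same share as among all genes, and summed to 438 to 504 RPKM in toxicant and 478 to 528 RPKM in control libraries. None of these markers was at 0 in all libraries, and their part in the Slc16a1 difference was not tested. Lower sums were not particular to these cells. Mural cell markers, lower in 5 of 7 genes, summed to 30.2 to 36.8 RPKM in toxicant and 37.3 to 40.5 RPKM in control libraries. Microglial markers, lower in 10 of 10 genes, summed to 118 to 148 RPKM in toxicant and 140 to 190 RPKM in control libraries.

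Ldhb (chr6:142490249-142507957, minus strand) encodes the lactate dehydrogenase subunit that favours oxidation of lactate to pyruvate. It lay between 108 and 140.5 RPKM (median 127) in the 6 toxicant libraries, against 187, 116, 175, 134 and 162 RPKM in controls 1, 2, 3, 4-5 and 6. Control 2 and control 4-5 were within the toxicant range and the other controls above it (log2 fold change -0.29 ± 0.13; limma, unadjusted p = 0.0454, adjusted p = 0.243). With the covariate the log2 fold change was -0.02.

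Ldha (chr7:46841475-46855627, plus strand), the subunit that favours lactate production, lay between 43.8 and 63.3 RPKM (median 55.9) in the 6 toxicant libraries, against 78.3, 39.4, 65.6, 48.5 and 67.8 RPKM in controls 1, 2, 3, 4-5 and 6. The groups overlapped, with control 2 below every toxicant library and controls 1, 3 and 6 above every one. Its log2 fold change was -0.12 ± 0.17 without and 0.25 with the covariate, and only the second had an unadjusted p under 0.05 (limma). Slc16a7, the neuronal transporter MCT2 that takes lactate up, was higher on average, at 2.36 ± 0.360 RPKM in toxicant and 1.90 ± 0.926 RPKM in control libraries (SD, n = 6 and 5; log2 fold change 0.31 ± 0.20), and its log2 fold change with the covariate was -0.09. Slc16a3, the transporter MCT4 known from astrocytes and glycolytic muscle, was under the filter and untested, at 0.332 ± 0.0749 RPKM in toxicant and 0.437 ± 0.0925 RPKM in control libraries.

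**Figure D2:**
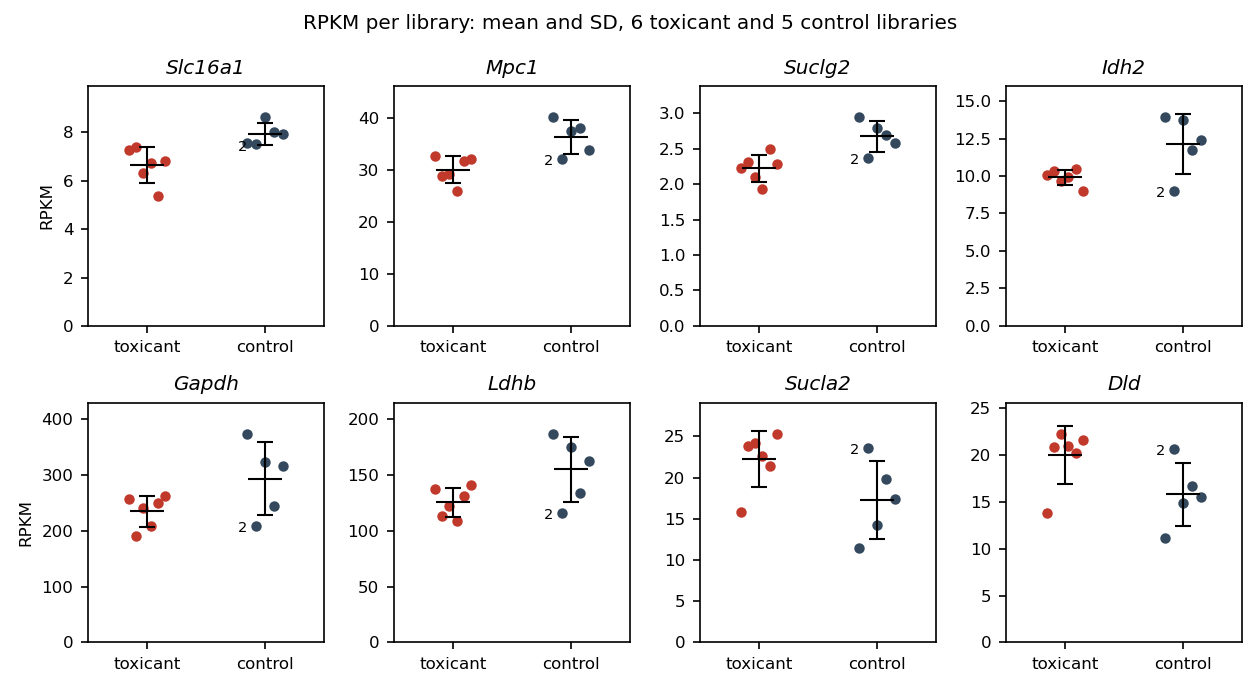
RPKM of 8 genes in each toxicant library (left, n = 6) and each control library (right, n = 5), with the mean and SD as bars and control 2 marked by its number. Slc16a1 is the only panel with no overlap, and control 2 lies at or below the other controls in 6 panels and above them for Sucla2 and Dld.

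Promoter letters are shown for the lactate pair Ldha and Ldhb, for Slc16a1, and for Sucla2, the member with the most positive difference, because these genes carry the contrasts described here. Each run is the 250 bases before the gene's start in RefSeq (GRCm38.p6), 5′ to 3′ along the gene's strand, with ACGTG, the core of the hypoxia response element, or its reverse complement CACGT in capitals. CACGTG, the E-box, contains both. The windows are chr7:46845554-46845803 on the plus strand for Ldha and chr6:142507958-142508207 on the minus strand for Ldhb. Those of Slc16a1 and Sucla2 are chr3:104638414-104638663 and chr14:73552536-73552785, both on the plus strand. The windows of Ldha and Sucla2 lie inside the spans given for these genes from GENCODE M21, which start further upstream than the RefSeq starts used here.
Ldha: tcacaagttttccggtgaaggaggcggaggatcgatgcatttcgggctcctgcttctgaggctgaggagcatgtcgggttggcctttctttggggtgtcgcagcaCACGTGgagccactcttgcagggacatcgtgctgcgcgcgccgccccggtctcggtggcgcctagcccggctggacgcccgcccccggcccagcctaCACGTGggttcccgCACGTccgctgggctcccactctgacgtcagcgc
Ldhb: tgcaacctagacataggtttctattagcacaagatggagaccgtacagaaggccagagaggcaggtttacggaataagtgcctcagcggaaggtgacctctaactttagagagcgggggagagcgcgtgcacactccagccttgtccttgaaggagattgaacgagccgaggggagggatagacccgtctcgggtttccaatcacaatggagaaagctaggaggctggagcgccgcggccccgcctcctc
Slc16a1: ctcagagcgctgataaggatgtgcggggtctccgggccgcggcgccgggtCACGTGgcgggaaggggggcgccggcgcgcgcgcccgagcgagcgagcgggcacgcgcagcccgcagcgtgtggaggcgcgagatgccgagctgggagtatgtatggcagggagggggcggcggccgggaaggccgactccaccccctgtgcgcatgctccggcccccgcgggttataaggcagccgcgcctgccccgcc
Sucla2: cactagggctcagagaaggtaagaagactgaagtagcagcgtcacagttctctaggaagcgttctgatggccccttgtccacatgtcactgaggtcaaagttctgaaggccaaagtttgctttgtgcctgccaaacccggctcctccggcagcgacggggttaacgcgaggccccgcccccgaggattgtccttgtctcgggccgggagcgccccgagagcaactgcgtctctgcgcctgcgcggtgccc
Where a gene had several windows the most upstream one is shown, which concerns Ldha, whose second window holds no match. The Ldha window shown holds 3 capital runs and that of Slc16a1 holds 1, while those of Ldhb and Sucla2 hold 0. RefSeq promoters were matched for 41 members, and Idh3a, Slc2a3 and Slc16a7 had no entry. At least 1 window held the letters in 17 of the 41 (41.5%), against 25.1% of 10283 tested genes with an entry and 18.5% of 27025 genes in all. Counted by window, since genes differ in how many starts they have, the letters were in 26 of 63 member windows (41.3%) and 21.3% of 13225 windows of tested genes. Windows of the same gene can overlap, as for Ogdh, whose windows all held the letters. The same letters can then count more than once. The members with the letters were Hk2, Pfkm, Pfkfb2, Pfkfb3, Aldoa, Pgk1, Pgam1, Pkm, Ldha, Slc16a1, Slc16a3, Pdhb, Pdk2, Pcx, Idh3g, Ogdh and Mdh1. Matches to 5 letters describe these windows and do not show binding.

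Of the 9 genes that admit pyruvate to mitochondria or convert it there, 7 were lower and 2 higher, with a median log2 fold change of -0.16. Among all genes tested 70.0% were lower, with a median of -0.11. Mpc1 (chr17:8282904-8297661, plus strand), a subunit of the mitochondrial pyruvate carrier, had the smallest p of all members. It lay between 25.9 and 32.5 RPKM (median 30.4) in the 6 toxicant libraries, against 40.04, 32.1, 37.5, 37.9 and 33.8 RPKM in controls 1, 2, 3, 4-5 and 6. Of the toxicant libraries, 5 were below the lowest control, control 2, and 1 lay just above it. The log2 fold change was -0.27 ± 0.09 (limma, unadjusted p = 0.00834, adjusted p = 0.207), and -0.15 with the covariate. Mpc1 shares 23.1% of its exon bases with the opposite-strand gene 4930506C21Rik, which averaged 0.93 RPKM, and whether counting used strand is not stated. Mpc2, the other carrier subunit, averaged 6.78 ± 0.772 RPKM in toxicant and 7.66 ± 1.10 RPKM in control libraries (SD, n = 6 and 5).

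The pyruvate dehydrogenase subunits did not share a sign. Dld, the E3 subunit that this complex shares with oxoglutarate dehydrogenase, lay between 13.8 and 22.3 RPKM (median 20.9) in the 6 toxicant libraries, against 11.2, 20.6, 14.9, 16.7 and 15.6 RPKM in controls 1, 2, 3, 4-5 and 6. Toxicant 1 was far below the other toxicant libraries, and control 2 was the highest control, inside the range of the rest of the toxicant group. The log2 fold change was 0.34 ± 0.15 (limma, unadjusted p = 0.0451, adjusted p = 0.243), and 0.08 with the covariate.

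Pdha1, the E1 alpha subunit whose phosphorylation switches the complex off, lay between 40.1 and 47.3 RPKM (median 45.5) in the 6 toxicant libraries, against 42.7, 40.9, 49.5, 45.5 and 46.3 RPKM in controls 1, 2, 3, 4-5 and 6. The groups lay over each other, with 3 toxicant libraries below and 3 above the control median (log2 fold change -0.02 ± 0.08; limma, adjusted p = 0.844). Pdhb, the E1 beta subunit, averaged 23.5 ± 1.30 RPKM in toxicant and 26.4 ± 3.21 RPKM in control libraries, and Dlat, the E2 subunit, 19.8 ± 1.09 RPKM in toxicant and 20.4 ± 1.71 RPKM in control libraries (SD, n = 6 and 5). Of the kinases that inactivate the complex, Pdk1 averaged 5.12 RPKM in toxicant and 4.45 RPKM in control libraries (log2 fold change 0.19 ± 0.10) and Pdk2 25.5 RPKM in toxicant and 29.8 RPKM in control libraries (log2 fold change -0.19 ± 0.15). Pcx, the pyruvate carboxylase that replenishes oxaloacetate in astrocytes, averaged 9.83 ± 0.495 RPKM in toxicant and 12.0 ± 2.67 RPKM in control libraries (log2 fold change -0.24 ± 0.13), and its log2 fold change with the covariate was 0.00.

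Of the 13 TCA cycle genes, 12 were lower and 1 higher, beside 70.0% of all genes tested that were lower. Their median log2 fold change of -0.22 was the most negative of the 6 role lists, beside -0.11 over all genes. Suclg2, the GTP-forming subunit of succinyl-CoA ligase, lay between 1.94 and 2.50 RPKM (median 2.25) in the 6 toxicant libraries, against 2.94, 2.37, 2.79, 2.69 and 2.58 RPKM in controls 1, 2, 3, 4-5 and 6. Of the toxicant libraries, 5 were below the lowest control (log2 fold change -0.22 ± 0.07; limma, unadjusted p = 0.0114, adjusted p = 0.214). With the covariate the value was -0.13.

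Idh2, the NADP-dependent mitochondrial isocitrate dehydrogenase, lay between 9.03 and 10.4 RPKM (median 10.001) in the 6 toxicant libraries, against 13.9, 8.99, 13.7, 11.7 and 12.4 RPKM in controls 1, 2, 3, 4-5 and 6. Control 2 was below every toxicant library and the other controls above every one (log2 fold change -0.27 ± 0.10; limma, unadjusted p = 0.0226, adjusted p = 0.223). Cs, the citrate synthase that opens the cycle, lay between 26.0 and 33.4 RPKM (median 29.9) in the 6 toxicant libraries, against 43.3, 28.1, 38.5, 32.6 and 38.3 RPKM in the same controls. Controls 2 and 4-5 were inside the toxicant range (log2 fold change -0.28 ± 0.11; limma, unadjusted p = 0.0276, adjusted p = 0.225). Fh1, the fumarase, was the other TCA cycle gene lower at an unadjusted p under 0.05, at 12.3 ± 1.12 RPKM in toxicant and 14.8 ± 2.48 RPKM in control libraries (SD, n = 6 and 5; limma, unadjusted p = 0.0392, adjusted p = 0.238). In all, 4 of 13 TCA cycle genes were lower at that level, beside 17.0% of all genes tested.

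Sucla2 (chr14:73525319-73596142, plus strand), the ATP-forming alternative to Suclg2, had the most positive difference of the members. It lay between 15.8 and 25.3 RPKM (median 23.3) in the 6 toxicant libraries, against 11.4, 23.6, 14.2, 19.8 and 17.4 RPKM in controls 1, 2, 3, 4-5 and 6. Toxicant 1 was the lowest toxicant library, control 2 lay among the other toxicant libraries, and control 1 was the lowest of all. The log2 fold change was 0.38 ± 0.17 (limma, unadjusted p = 0.0473, adjusted p = 0.244), and with the covariate it was 0.07. Suclg1, the alpha subunit that both partners need, averaged 12.7 RPKM in toxicant and 14.9 RPKM in control libraries, and its log2 fold change was -0.22 ± 0.12. All 3 subunits of the NAD-dependent isocitrate dehydrogenase were lower by sign. Idh3a averaged 29.0 RPKM in toxicant and 31.5 RPKM in control libraries (log2 fold change -0.11 ± 0.08), Idh3b 41.3 RPKM in toxicant and 46.9 RPKM in control libraries (log2 fold change -0.17 ± 0.12) and Idh3g 27.2 RPKM in toxicant and 31.9 RPKM in control libraries (log2 fold change -0.22 ± 0.10).

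Ogdh and Dlst, the E1 and E2 subunits of oxoglutarate dehydrogenase, were lower by sign as well. Ogdh averaged 28.3 RPKM in toxicant and 33.8 RPKM in control libraries (log2 fold change -0.23 ± 0.12), and Dlst 8.37 RPKM in toxicant and 9.53 RPKM in control libraries (log2 fold change -0.17 ± 0.09). Mdh1, the cytosolic malate dehydrogenase of the malate-aspartate shuttle, averaged 120.0 ± 11.3 RPKM in toxicant and 139.6 ± 29.0 RPKM in control libraries, and its mitochondrial counterpart Mdh2 averaged 49.0 ± 5.37 RPKM in toxicant and 58.9 ± 14.8 RPKM in control libraries (SD, n = 6 and 5). Both were lower in toxicant hippocampi by sign (log2 fold changes -0.20 ± 0.13 and -0.23 ± 0.16), and both had a log2 fold change above 0 with the covariate (0.07 and 0.10).

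**Figure D3:**
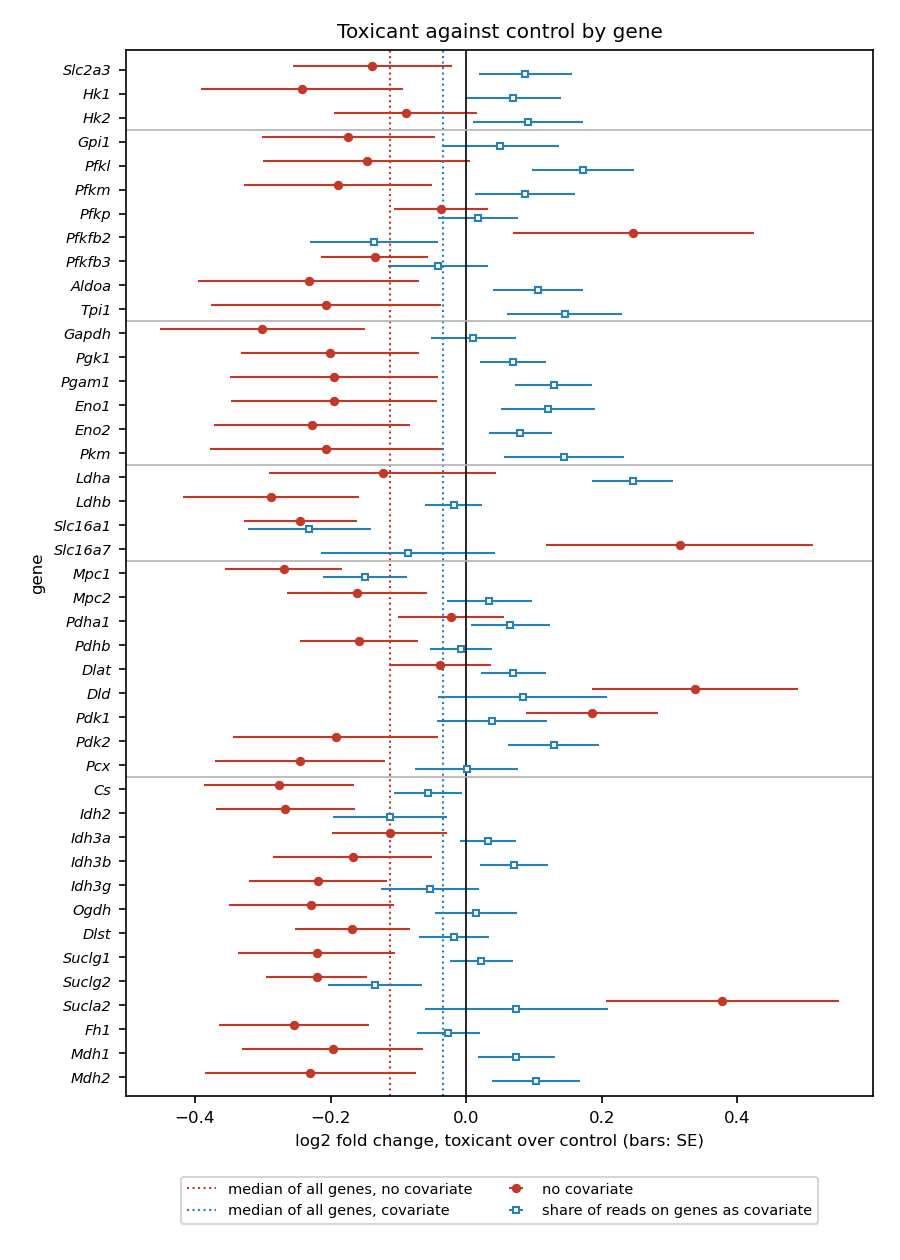
Log2 fold change of each gene, toxicant over control, with its SE, in the fit without a covariate (filled circles) and with the gene-read share as covariate (open squares), and dotted lines at the median of all genes in each fit. Most circles lie left of 0 and most squares right of it. Several genes keep values below 0 in both fits, among them Slc16a1, Mpc1, Suclg2, Idh2 and Cs.

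Within each library, 6 pairs of alternative enzymes or transporters were compared as log2 ratios of (RPKM + 0.5) by exact permutation of the group labels (462 arrangements, two-sided), Benjamini-Hochberg adjusted over the 6. None passed an adjusted p under 0.05. The Ldha/Ldhb log2 ratio ran between -1.36 and -1.11 (median -1.20) in toxicant libraries, against -1.25, -1.55, -1.41, -1.46 and -1.25 in controls 1, 2, 3, 4-5 and 6. All 6 toxicant libraries were above the control median and 4 above the highest control, so the groups overlapped. The difference was 0.17 ± 0.07 log2 units (SE; two-sided exact permutation p = 0.0346, adjusted p = 0.104). With the gene-read share as covariate it was 0.26 (permutation p = 0.00216, the smallest possible here, adjusted p = 0.013). That share differed between the groups, with means of 80.8% in toxicant and 85.4% in control libraries, so this p is only approximate. Over leaving out each library the difference was between 0.12 and 0.20 without the covariate.

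The Sucla2/Suclg2 ratio, which sets the ATP-forming against the GTP-forming succinyl-CoA ligase, averaged 3.05 ± 0.27 in toxicant and 2.45 ± 0.49 in control libraries (SD, n = 6 and 5). The difference was 0.60 ± 0.24 log2 units (two-sided exact permutation p = 0.0281, adjusted p = 0.104), with 4 toxicant libraries above the highest control, which was control 2. The Slc16a1/Slc16a7 ratio, MCT1 over MCT2, averaged 1.33 ± 0.29 in toxicant and 1.88 ± 0.54 in control libraries, a difference of -0.56 ± 0.27 (two-sided exact permutation p = 0.0584, adjusted p = 0.117). Below the control median were all 6 toxicant values, and control 2, at 1.03, lay within the toxicant range. With the covariate the Sucla2/Suclg2 difference was 0.21 and the Slc16a1/Slc16a7 difference -0.15.

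The Pcx/Pdha1 ratio, the carboxylating over the oxidative route of pyruvate, differed by -0.22 ± 0.13 log2 units (two-sided exact permutation p = 0.0996, adjusted p = 0.149) and the Pfkp/Pfkm ratio by 0.15 ± 0.12 (two-sided exact permutation p = 0.208, adjusted p = 0.249). With the covariate the Pfkp/Pfkm difference was -0.07, of the opposite sign. The Eno1/Eno2 ratio differed by 0.03 ± 0.04 (two-sided exact permutation p = 0.437, adjusted p = 0.437), with means of -0.27 ± 0.08 in toxicant and -0.30 ± 0.05 in control libraries. Without control 2, 3 ratios passed the adjusted threshold. The exact permutation adjusted p was then 0.0429 for Slc16a1/Slc16a7 (difference -0.77), 0.0429 for Sucla2/Suclg2 (0.75) and 0.0476 for Pcx/Pdha1 (-0.30).

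**Figure D4:**
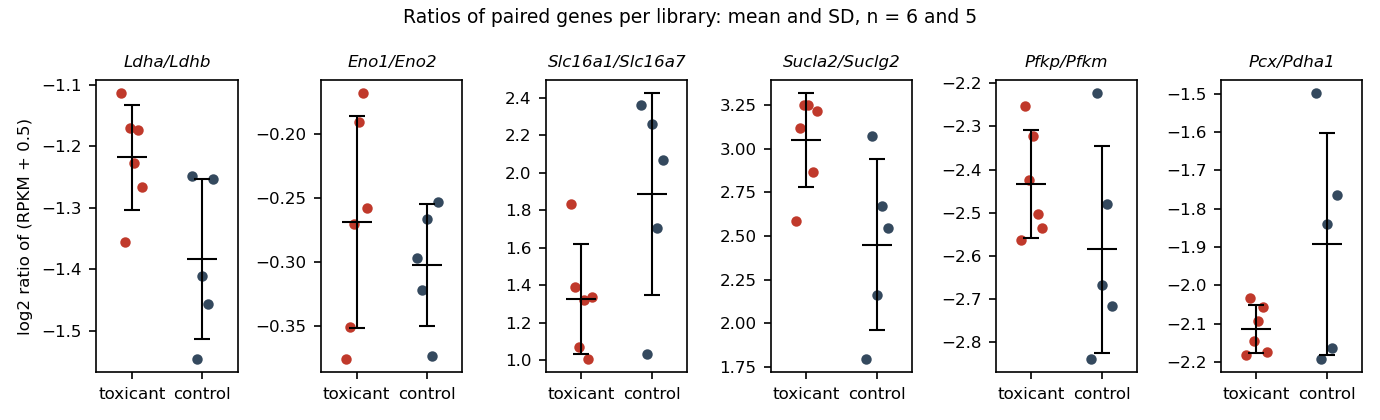
Log2 ratios of (RPKM + 0.5) for 6 pairs of genes in each toxicant library (left, n = 6) and each control library (right, n = 5), with the mean and SD as bars. The control points spread more widely than the toxicant points for Slc16a1/Slc16a7, Sucla2/Suclg2 and Pcx/Pdha1, and the Eno1/Eno2 groups lie over each other.

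The 5 members with a positive fold change, Pfkfb2, Slc16a7, Dld, Pdk1 and Sucla2, had the opposite pattern to the other 38 across libraries. They were singled out by the sign of the fold change, so their values are a description. Their median deviation from the gene means was -0.64, 0.28, -0.31, 0.03 and -0.18 log2 units in controls 1, 2, 3, 4-5 and 6, and ran from -0.24 in toxicant 1 to 0.32 in toxicant 3. Control 1 was the lowest control in all 5, and toxicant 1 the lowest toxicant library in all 5. Toxicant 1 also had the highest share of reads on genes of its group, 83.8%, and control 1 the highest of all, 89.5%. The 5 genes had a median GC content of 43.2% (37.7% to 46.4%), against 50.7% (42.9% to 57.7%) for the 38 and 50.0% for all genes tested. The median longest transcript was 4505 bases for the 5, 2781 bases for the 38 and 3328 bases for all genes. With a trend on GC content removed from each library, 32 of 43 members were lower, against 50.9% of all genes, and the median log2 fold change was -0.05. At an unadjusted p under 0.05 this fit gave 3 members lower (7.42% of all genes) and 3 higher (7.05% of all genes). The share of reads on genes differed between the groups, at 80.8% ± 2.67 in toxicant and 85.4% ± 4.59 in control libraries (SD, n = 6 and 5), so it cannot be fully told apart from exposure in these libraries.

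**Figure D5:**
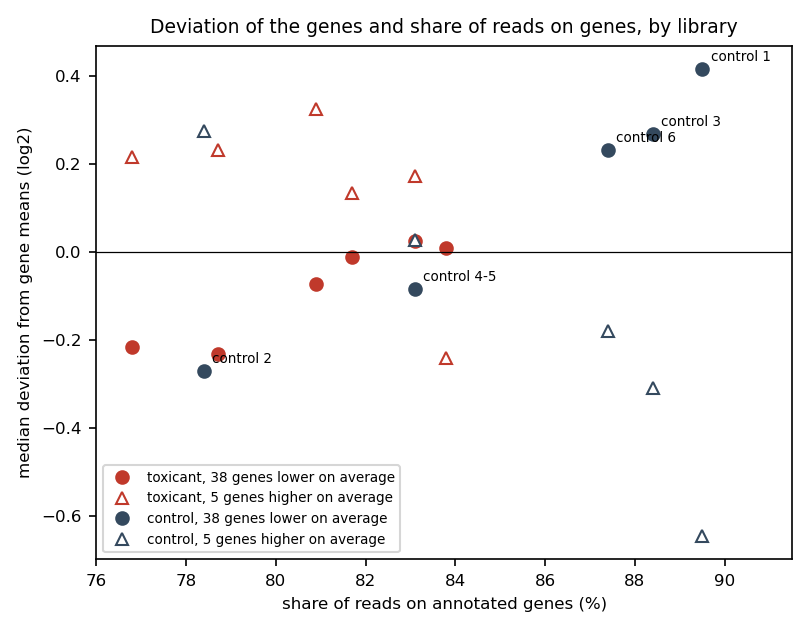
Median deviation from the gene means (log2) of the 38 genes lower on average (filled circles) and the 5 higher on average (open triangles) in each library, against the percent of its reads on annotated genes, for 6 toxicant and 5 control libraries. Circles are higher and triangles lower in libraries with more reads on genes, and control 2 (78.4%) sits among the toxicant libraries. The share is summed from the same deposited values over all genes, so the axes are not independent.

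Of 96 tested genes in further lists of carbohydrate and energy metabolism, 80 were lower by sign, against 70.0% of all genes tested, 56 lay below the median of all genes, and none passed the adjusted test in limma. Of 20 other genes of glucose entry and glycolysis, 17 were lower with a median log2 fold change of -0.16, against -0.11 over all genes. The pair with the smallest p had opposite signs. Pgm2l1, which makes glucose 1,6-bisphosphate in brain, averaged 41.7 ± 7.11 RPKM in toxicant and 28.6 ± 9.95 RPKM in control libraries (log2 fold change 0.58 ± 0.20; limma, adjusted p = 0.217), and Bpgm, the bisphosphoglycerate mutase, 9.51 ± 0.781 RPKM in toxicant and 11.5 ± 1.85 RPKM in control libraries (SD, n = 6 and 5). Of 6 lactate transport genes past the filter, 5 were lower. Bsg, the chaperone basigin that carries MCT1 to the membrane, averaged 142 ± 13.2 RPKM in toxicant and 175 ± 40.7 RPKM in control libraries (SD, n = 6 and 5).

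Of 10 other pyruvate dehydrogenase genes, 7 were lower, the same share as among all genes tested (70.0%), and the median log2 fold change of -0.08 was nearer 0 than that of all genes (-0.11). Lipt1, a lipoyl transferase, averaged 1.16 RPKM in toxicant and 1.43 RPKM in control libraries, and Pdk3, another kinase of the complex, 6.48 RPKM in toxicant and 7.48 RPKM in control libraries. Of 16 other TCA cycle genes, 15 were lower (median -0.16). Sdhc, a membrane subunit of succinate dehydrogenase, averaged 14.8 ± 1.49 RPKM in toxicant and 18.4 ± 3.53 RPKM in control libraries, and Aco1, the cytosolic aconitase, 4.15 ± 0.302 RPKM in toxicant and 5.22 ± 0.933 RPKM in control libraries (SD, n = 6 and 5). All 11 tested genes of the NADH shuttles and mitochondrial carriers were lower (median -0.20). Gpd2, the mitochondrial enzyme of the glycerol phosphate shuttle, had the smallest p of these, with 18.0 ± 0.948 RPKM in toxicant and 21.4 ± 1.78 RPKM in control libraries (log2 fold change -0.25 ± 0.07; limma, unadjusted p = 0.00573, adjusted p = 0.205). Gpd1l, a relative of its cytosolic partner, averaged 16.1 ± 1.81 RPKM in toxicant and 20.5 ± 3.84 RPKM in control libraries. With the covariate, the medians of these lists lay between -0.07 and 0.04.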

How the data were processed

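Polyadenylated RNA from hippocampi was sequenced as single reads, per the labels' protocols. The authors deposited 1 table of RPKM values, named by sample code, per the file headers. Not given in the sources used here were the aligner, counting program, strand setting, build and annotation. Each column was matched to its sample by the code in the labels. The columns of controls 4 and 5 were identical and counted once (n = 5 control, n = 6 toxicant). Nothing names a batch.

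Depth came from the RPKM steps: multiplied by GENCODE M21 (GRCm38) exon lengths, 98.29% to 98.44% of a library's values were whole reads within 0.05. The p-values of limma set the group difference against the spread between these animals, with each gene's variance drawn toward a trend over all genes.

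Values were analysed as log2(RPKM + 0.5), which understates changes of low genes, for the 13493 genes whose mean over 11 libraries reached 0.5 RPKM. limma 3.58.1 in R 4.3.3 (trend, two-sided, no covariate) was run on all of them with Benjamini-Hochberg adjustment and a threshold of 0.05. Ratios used an exact permutation test over 462 arrangements of the group labels. The scripts were tested on simulated data.

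The members and lists were chosen with earlier results of these data known. Every member is named. Values by library are given for the 2 smallest p of each role list, for Hk1, Slc2a3, Gapdh, Pkm, Ldha, Ldhb, Pdha1 and Cs, and for members whose groups do not overlap, with Sucla2 added after its values were seen. Of each other pathway list the 2 genes with the smallest p are named, except 2 genes not reported here. GRCm38 positions are looked up by identifier and promoters are from RefSeq GRCm38.p6.

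Alternatives were pseudocounts of 0.1 and 1, filtering at 1 RPKM or not at all, quantile and median-ratio scaling, voom on recovered reads, all 12 columns, the replicate number as a block, the gene-read share (percent of a library's reads on annotated genes) as covariate, leaving out each library, and an adjusted threshold of 0.1. Removal of a GC trend was chosen after seeing the data.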

Additional observations from a re-analysis of the deposited data

Results flagged for a closer look

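In 3 of 100 group tests a single library stood apart from the rest of its group by Dixon's criterion, and chance flags about 5 in 100. Dld read 13.81 RPKM in toxicant 1, against 20.19 to 22.27 RPKM in the other toxicant libraries. Slc16a7 read 1.672 RPKM in toxicant 1, against 2.391 to 2.741 RPKM in the rest of its group. Gpi1 read 57.78 RPKM in toxicant 2, against 70.04 to 76.96 RPKM in the others. Toxicant 1 had the highest share of reads on genes of its group (83.8%), and toxicant 2 had 78.7%. The part of that share in these values was not tested.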

How the results depend on the processing

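The adjusted count of members stayed at 0 in every alternative run except without control 2. The count over all genes was 0 and became 1 with a pseudocount of 0.1, 9 with all 12 columns and 11 at an adjusted p under 0.1. Members lower at an unadjusted p under 0.05 numbered 7 (and 2288 of all 13493 genes). There were 1 (and 694 genes) with median-ratio scaling, 4 (and 1173) with quantile normalization and 2 (and 1232) with the share covariate. With the GC trend removed there were 3 (and 1001 of 13488 genes). With the replicate number as a block there were 22 (and 3600 of all 13493 genes), and 0 after adjustment, but same-numbered animals did not deviate together in every pair (r between -0.298 and 0.624, with 1 of 5 controls closest to its own number), so the numbers were not taken to pair animals. Members higher numbered 2 (and 449 of all 13493 genes). There were 0 (and 732 of 27660 genes) with no filter, 4 (and 850 of 13493) with quantile normalization and 1 (and 407 of 13508) with all 12 columns. The median fold change was 0.050 with the share covariate. The Ldha/Ldhb difference was 0.26 and the Pfkp/Pfkm difference -0.069 with that covariate. The ratios were not run under the filter, voom and GC alternatives.

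Leaving out each library in turn gave 0 to 21 members and 0 to 4932 genes past the adjusted threshold, the upper values without control 2 and 0 without any other library. Members lower at an unadjusted p under 0.05 ranged from 3 to 32, and genes in all from 1158 to 5386. There were 3 without control 1 (and 1309 of 13522 genes) or control 3 (and 1158 of 13496). There were 4 without control 6 (and 1426 of 13517 genes), toxicant 2 (1602 of 13464) or toxicant 4 (1417 of 13477). Without control 4-5 there were 11 (and 2470 of 13486 genes), and without control 2 there were 32 (and 5386 of 13468). Members higher ranged from 0 to 4, with 4 without control 2 (and 1721 of 13468 genes). There were 0 without control 1 (and 151 of 13522 genes), 3 (178 of 13496) or 6 (219 of 13517). There were also 0 without any of toxicants 2 to 6, beside 247, 242, 239, 274 and 235 genes in that order. The median ran from -0.28 to -0.10. Ratio differences ran from 0.12 to 0.20 for Ldha/Ldhb, 0.01 to 0.05 for Eno1/Eno2, -0.77 to -0.44 for Slc16a1/Slc16a7, 0.44 to 0.75 for Sucla2/Suclg2, 0.09 to 0.24 for Pfkp/Pfkm and -0.30 to -0.12 for Pcx/Pdha1. Pdha1 ran from -0.056 to 0.013, being 0.013 without control 3 and 0.0055 without toxicant 2, and no other member changed sign.

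Log2 fold changes that changed sign are these. With the share covariate, 29 did so: Slc2a3 0.087, Hk1 0.069, Hk2 0.091, Gpi1 0.050, Pfkl 0.17, Pfkm 0.087, Pfkp 0.018, Pfkfb2 -0.14, Aldoa 0.11, Tpi1 0.15, Gapdh 0.011, Pgk1 0.069, Pgam1 0.13, Eno1 0.12, Eno2 0.080, Pkm 0.14, Ldha 0.25, Slc16a7 -0.086, Mpc2 0.034, Pdha1 0.065, Dlat 0.070, Pdk2 0.13, Pcx 0.0006, Idh3a 0.032, Idh3b 0.070, Ogdh 0.014, Suclg1 0.022, Mdh1 0.074 and Mdh2 0.10. With quantile normalization, 13 did so: Gpi1 0.034, Pfkl 0.020, Pfkm 0.024, Pfkp 0.075, Pgk1 0.0007, Eno1 0.0002, Ldha 0.068, Pdha1 0.14, Pdhb 0.0082, Dlat 0.11, Idh3a 0.047, Idh3b 0.0024 and Mdh1 0.012. With median-ratio scaling, 5 did so: Pfkp 0.091, Ldha 0.0093, Pdha1 0.11, Dlat 0.091 and Idh3a 0.018. With the GC trend removed, 6 did so: Hk2 0.081, Pfkl 0.030, Pfkp 0.065, Pfkfb3 0.015, Ldha 0.043 and Dlat 0.040. Why the signs differed was not tested. The member with the fewest reads, Slc16a3, had at least 28 per library. Hk2 was under the 1 RPKM filter and has no value there.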

Other observations

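Neighbouring carbohydrate pathways read as follows, beside 70.0% of all genes tested that were lower and a median log2 fold change of -0.11 over all genes. Of 8 pentose phosphate genes, 7 were lower in toxicant hippocampi and 0 passed the adjusted test in limma. At an unadjusted p under 0.05 in limma 2 were lower, beside 17.0% of all genes tested, and the median log2 fold change was -0.20. G6pdx, the glucose 6-phosphate dehydrogenase that opens the pathway and makes NADPH, averaged 4.42 ± 0.416 RPKM in toxicant and 5.90 ± 1.05 RPKM in control libraries (SD, n = 6 and 5), a log2 fold change of -0.37 ± 0.11 (limma, unadjusted p = 0.00413, Benjamini-Hochberg adjusted p = 0.201) and -0.17 with the covariate. Tkt, the transketolase of the non-oxidative branch, averaged 12.1 ± 1.30 RPKM in toxicant and 15.5 ± 3.33 RPKM in control libraries.

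Of 12 glycogen genes, 8 were lower, a smaller share than among all genes, and their median of -0.07 was nearer 0 than that of all genes. Gyg, the glycogenin that primes glycogen, averaged 8.84 ± 0.685 RPKM in toxicant and 10.3 ± 1.12 RPKM in control libraries (SD, n = 6 and 5). Of 13 tested genes of the hypoxia-inducible factor axis, 10 were lower (median log2 fold change -0.17). Epas1, the HIF-2 alpha subunit abundant in endothelium, averaged 19.7 ± 1.40 RPKM in toxicant and 22.8 ± 1.82 RPKM in control libraries, with a log2 fold change of -0.20 ± 0.08 and -0.16 with the covariate. Egln3, a prolyl hydroxylase that marks HIF subunits for degradation, averaged 1.05 ± 0.2003 RPKM in toxicant and 1.34 ± 0.228 RPKM in control libraries (SD, n = 6 and 5). Endothelial markers differed in the same direction as Epas1, and their part in it was not tested.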
